A study of Mus musculus with 40 samples.

Results

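Integrins and laminins were followed as a set of 35 genes, comprising 17 integrin alpha chains, 8 integrin beta chains, 5 laminin alpha chains, 3 laminin beta chains and 2 laminin gamma chains. Members were taken by gene symbol and all 35 were found, all protein-coding, among 55450 genes annotated on mm10, of which 21951 are protein-coding. The data were ChIP-seq peak lists of H3K27me3, the mark laid down by Polycomb repressive complex 2, and of H3K4me3, the mark of promoters that are active or poised. The cells were oligodendrocyte precursor cells (OPCs) cultured from litters at postnatal day 5 to 7 and collected without differentiation. The labels spell the mouse line AMGFAP-Cre;K27M, and the paper calls the Cre line hGFAP-Cre. K27M cultures carried the histone H3.3 K27M substitution, knocked into the endogenous locus and switched on by a human GFAP promoter-driven Cre that acts in neural stem and progenitor cells, and controls came from littermates whose exact alleles the labels do not give. For each mark there were 2 brainstem cultures of each genotype (numbers 59 and 61) and 3 telencephalon cultures of each (numbers 59, 60 and 61), the latter called cortex in the labels. This gave 20 libraries in 5 matched pairs of K27M and control. The regions were parted after whole brains had been removed, so brainstem and telencephalon cultures of one number may share animals and the 5 pairs may not be independent. Brains were pooled by region and genotype before OPCs were captured on anti-PDGFRa plates, after endothelial cells and microglia had been depleted, so a culture stands for a pool of animals grown under proliferation conditions.

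Integrins are receptors for the extracellular matrix. Each is a pair of one alpha and one beta chain, and the pairing decides the ligand: collagen, laminin, proteins with an RGD sequence such as fibronectin and vitronectin, or cell surface proteins of leukocytes and endothelium. Laminins are basement membrane proteins built from one alpha, one beta and one gamma chain. In OPCs, integrins with the Itgb1 or Itgav chain link the matrix to growth factor signalling, survival and migration, and laminin alpha2 (Lama2) is known for its role in myelination. A promoter holding both H3K4me3 and H3K27me3 is called bivalent, a state typical of developmental genes that are held low. These are bulk libraries, so both marks in 1 cell, marks in different cells, and a change in the share of cells with a mark cannot be told apart.

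A promoter was taken as the 3000 bp from 2000 bp before to 1000 bp after a transcript start, and a gene was counted as marked in a library where a peak overlapped any of its promoters. The coverage given below is the length of the best covered promoter of a gene that lay under peaks, from 0 to 3000 bp. Polycomb-marked promoters are typically rich in the dinucleotide CG, so 5 promoters that stand for the patterns of this set are shown, each from 250 bases before to 50 after a RefSeq transcript start (GRCm38.p6, 5′ to 3′), with CG in capitals. Lamb1 (chr12:31265043-31265342, plus strand) had an H3K27me3 peak over this stretch in 10 of 10 libraries, Itga5 (chr15:103366742-103367041, minus strand) in 7 and Itga2 (chr13:114932051-114932350, minus strand) in 2. Itgav (chr2:83724147-83724446, plus strand) had H3K4me3 in 10 of 10 libraries with no H3K27me3, and Itgax (chr7:128129300-128129599, plus strand) had neither mark.
Lamb1: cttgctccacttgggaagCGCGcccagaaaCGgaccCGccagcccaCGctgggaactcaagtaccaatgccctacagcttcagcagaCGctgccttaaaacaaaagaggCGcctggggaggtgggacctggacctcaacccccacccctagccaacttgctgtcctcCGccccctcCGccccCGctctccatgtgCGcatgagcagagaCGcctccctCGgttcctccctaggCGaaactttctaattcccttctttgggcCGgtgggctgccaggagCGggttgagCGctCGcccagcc
Itga5: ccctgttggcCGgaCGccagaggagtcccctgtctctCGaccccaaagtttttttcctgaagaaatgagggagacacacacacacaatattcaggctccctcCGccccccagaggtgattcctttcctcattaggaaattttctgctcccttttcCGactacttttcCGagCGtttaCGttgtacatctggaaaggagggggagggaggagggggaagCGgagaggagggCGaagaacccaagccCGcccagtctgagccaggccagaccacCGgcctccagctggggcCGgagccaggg
Itga2: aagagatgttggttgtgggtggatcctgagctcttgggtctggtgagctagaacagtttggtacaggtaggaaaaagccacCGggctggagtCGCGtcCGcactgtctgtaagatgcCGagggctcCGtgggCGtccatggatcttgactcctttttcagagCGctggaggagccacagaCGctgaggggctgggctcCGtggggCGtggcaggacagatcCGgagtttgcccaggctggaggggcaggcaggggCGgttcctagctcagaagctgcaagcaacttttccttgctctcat
Itgav: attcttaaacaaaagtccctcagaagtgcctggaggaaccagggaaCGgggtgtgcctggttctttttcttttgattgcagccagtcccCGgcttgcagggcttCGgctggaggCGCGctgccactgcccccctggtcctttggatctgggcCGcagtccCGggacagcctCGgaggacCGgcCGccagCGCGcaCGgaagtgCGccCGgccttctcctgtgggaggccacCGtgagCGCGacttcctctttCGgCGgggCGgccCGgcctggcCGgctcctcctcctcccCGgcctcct
Itgax: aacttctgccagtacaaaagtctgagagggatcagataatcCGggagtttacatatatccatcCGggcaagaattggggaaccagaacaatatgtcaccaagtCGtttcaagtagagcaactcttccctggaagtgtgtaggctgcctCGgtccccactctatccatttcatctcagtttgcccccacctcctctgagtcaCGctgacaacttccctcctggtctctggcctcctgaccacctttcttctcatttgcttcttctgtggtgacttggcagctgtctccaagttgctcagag
These stretches hold 18 CG in Lamb1, 13 in Itga5, 13 in Itga2, 24 in Itgav and 5 in Itgax. A RefSeq promoter was at hand for 23 of the 35 members. The 4 of these with H3K27me3 in every library (Itga3, Itga11, Itgb5 and Lamb1) held 16 to 24 CG, the 10 with H3K27me3 in some libraries 1 to 24 (median 10), and the 9 with H3K27me3 in none 5 to 27 (median 12). Over 27025 genes with such a promoter the median was 8, and 94.6% held at least 1 CG. All 4 always-marked members had at least 15 CG, as did 37.1% of all genes, 1 of the 10 sometimes marked (Lama5) and 3 of the 9 never marked (Itga8, Itgav and Itgb1), so CG-rich promoters occurred with and without H3K27me3. The 4 members with a RefSeq promoter and no H3K4me3 anywhere (Itga10, Itgam, Itgax and Itgb7) held 5 to 6 CG. These classes count a peak over any promoter of a gene. Over the RefSeq stretch itself, H3K27me3 lay in 9 libraries for Itga3 and in 8 for Itga11 and for Itgb5. Among the sometimes marked members, Itga4, Itga9 and Lamb2 had no H3K27me3 over that stretch, so their CG counts describe sequence without the mark. Where a gene had several RefSeq promoters, the one with the most CG was used.

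The 20 libraries held 4739 to 64808 H3K27me3 peaks and 20961 to 31200 H3K4me3 peaks. No read counts were in the lists, so depth was not used and a promoter without a peak can hold signal under the threshold of the caller. The OPC markers Pdgfra, Cspg4, Olig1, Olig2, Sox10 and Ptprz1 had H3K4me3 in all 10 libraries and H3K27me3 in none. Of 6 microglia and leukocyte markers 0 to 1 had H3K4me3 in a library, of 5 endothelial markers 1 to 2, of 4 astrocyte markers 2 to 4 and of 3 neuronal markers 3. Aif1, Csf1r, Ptprc, Pecam1, Cdh5 and Tek had neither mark in any library. P2ry12 had H3K4me3 in 1 brainstem control, 2 brainstem K27M, 2 telencephalon control and 3 telencephalon K27M cultures. Flt1 had both marks in every library, and Cldn5 had H3K27me3 in every library and H3K4me3 in some. Cx3cr1 and Tmem119 had H3K27me3 in some libraries and no H3K4me3. Telencephalon culture 59 stood apart in both genotypes, with the fewest H3K27me3 peaks of its genotype in that region (12715 in the control and 4739 in K27M) and low H3K4me3 peak heights, and counts that change without it are given both ways.

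**Figure D1:**
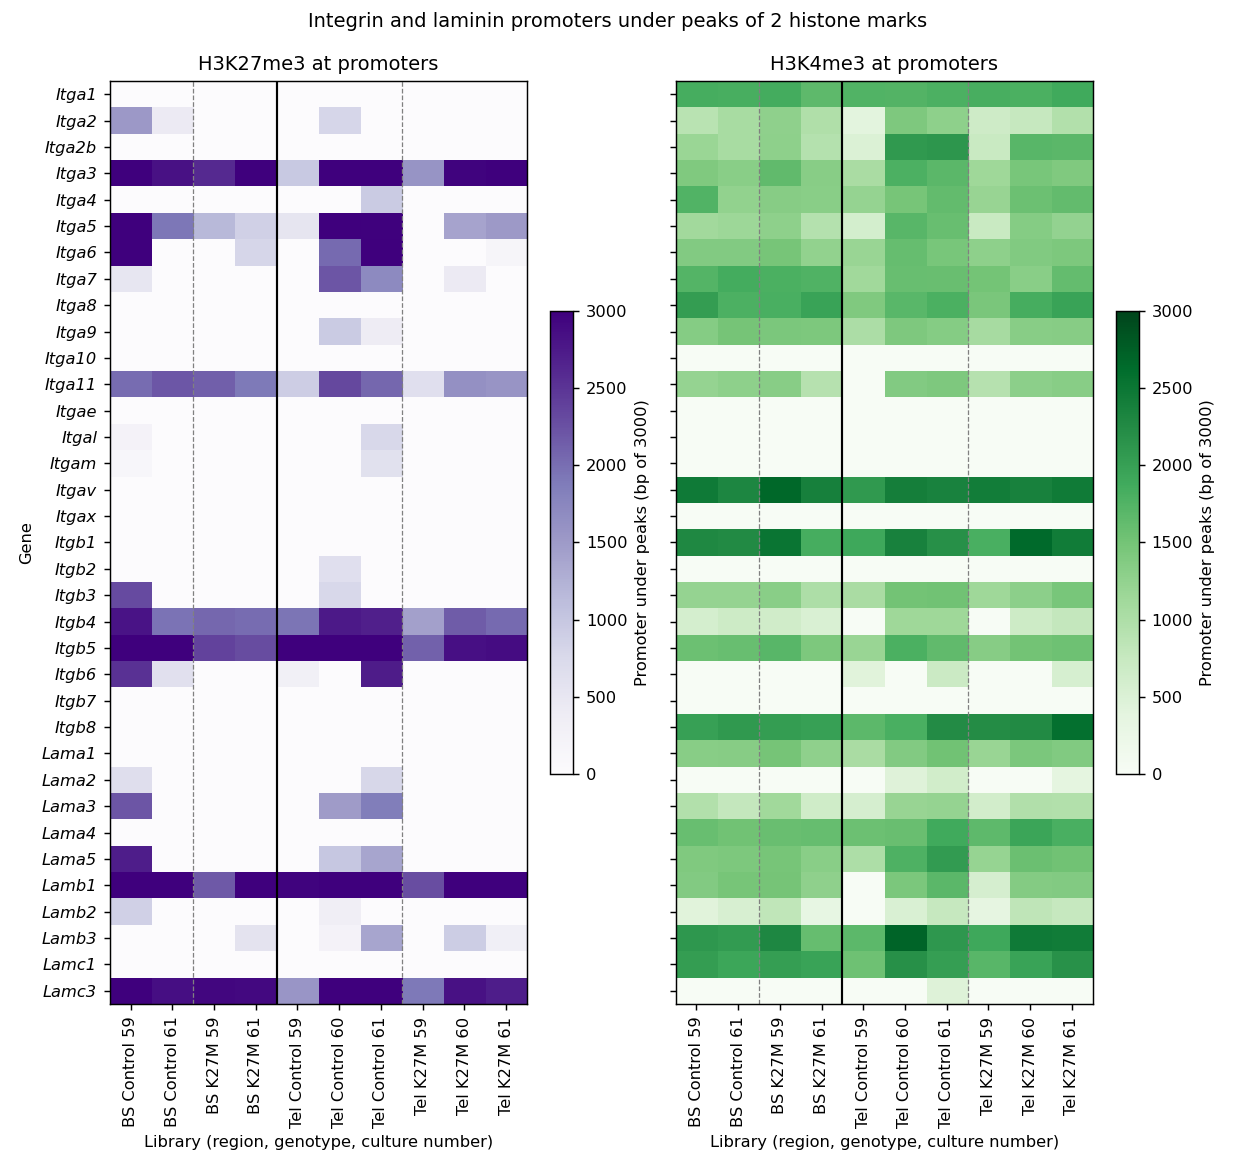
Heat maps of the length of promoter under peaks (0 to 3000 bp, colour) for the 35 genes (rows) in each library (columns, BS for brainstem and Tel for telencephalon), with H3K27me3 on the left and H3K4me3 on the right. The solid line parts the regions and the dashed lines part control from K27M. Itga3, Itga11, Itgb4, Itgb5, Lamb1 and Lamc3 are marked by H3K27me3 in all 10 libraries, while 13 genes have none.

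H3K27me3 was found at 22 of the 35 genes in at least 1 library, against 14152 of all 55450 genes. H3K4me3 was found at 28 members, and the count of all genes is not given for it. In the brainstem, 18 and 9 members had H3K27me3 in controls 59 and 61, and 7 and 9 in K27M cultures 59 and 61. In the telencephalon, 8, 17 and 18 members had it in controls 59, 60 and 61, and 6, 9 and 9 in the K27M cultures of these numbers. The 3 libraries with 17 or 18 marked members were the 3 with the most peaks (49615 to 64808), and the 7 others, with 4739 to 25632 peaks, had 6 to 9. How far the number of peaks in a library sets these counts was not tested. The share of members marked was above the share of all protein-coding genes in each library, at 20.0% and 25.7% against 10.2% and 11.6% in brainstem K27M, and 51.4% and 25.7% against 28.3% and 17% in brainstem controls. In telencephalon controls 59, 60 and 61 it was 22.9%, 48.6% and 51.4%, against 9.99%, 25.6% and 30.1%. In the K27M cultures of these numbers it was 17.1%, 25.7% and 25.7%, against 6.41%, 12.25% and 10.3%. Members had from 1 (Itgae) to 10 (Itga2b) promoters, and more promoters give more chances of a peak. Neither these shares nor those of promoter states below were matched for that number. H3K4me3 was steadier, with 25 members in each of the 4 brainstem libraries and 22 to 28 in the 6 telencephalon libraries. These were 71.4% in the brainstem, against 61.1% to 63.5% of protein-coding genes, and 62.9% to 80% in the telencephalon, against 58.8% to 65.1%.

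**Figure D2:**
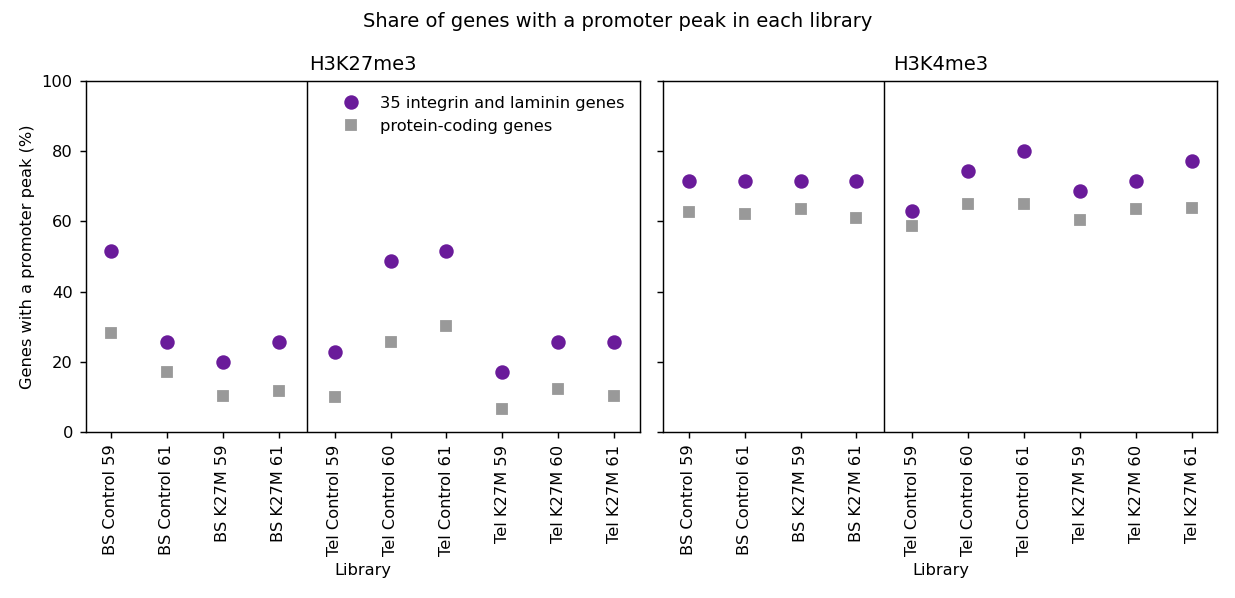
Percent of genes with a promoter peak in each library, for the 35 integrin and laminin genes (circles) and 21951 protein-coding genes (squares), with H3K27me3 on the left and H3K4me3 on the right. For H3K27me3 the set ranges from 17.1% to 51.4% and moves with the share of all protein-coding genes, from 6.41% to 30.1%.

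Promoter states were set in controls from consensus peaks, which need support from at least 2 cultures. Members are a fixed list chosen with earlier results of these data known, so the shares below describe that list and were not tested. In the brainstem 8 members were bivalent (22.9%), against 4.6% of all genes and 9.32% of protein-coding genes. These were Itga2, Itga3, Itga5, Itga6, Itga11, Itgb4, Itgb5 and Lamb1. In the telencephalon 10 were bivalent (28.6%), against 7.31% of all genes and 14.5% of protein-coding genes, and these were Itga3, Itga5, Itga6, Itga7, Itga11, Itgb4, Itgb5, Lama3, Lama5 and Lamb1. H3K4me3 alone was found at 17 members in each region (48.6%), against 26.4% of all and 52% of protein-coding genes (brainstem) or 25.7% and 49.5% (telencephalon). Lamc3 was the 1 member with H3K27me3 alone in both, a state that held for 3.01% of all and 3.36% of protein-coding genes (brainstem) or 3.75% and 3.43% (telencephalon). The unmarked members numbered 9 in the brainstem, against 65.9% of all genes and 35.3% of protein-coding genes, and 7 in the telencephalon, against 63.3% and 32.6%, and Itgb6 and Lama2 made the difference. The H3K27me3 peaks of Itgb6 in both brainstem controls, given below, did not reach the p-values of the consensus step, so its state there is unmarked. In all, 29 of 35 members had the same state in both regions.

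Itga3, Itga6 and Itga7 pair with Itgb1 or, for Itga6, also with Itgb4 to bind laminin, and all 3 were bivalent in the telencephalon and 2 of 3 in the brainstem. Itga3 was covered by H3K27me3 over 3000 and 2835 bp in brainstem controls 59 and 61 and over 2596 and 3000 bp in the K27M cultures, and over 972, 3000 and 3000 bp in telencephalon controls 59, 60 and 61 and 1581, 2960 and 3000 bp in K27M. The groups overlapped in both regions, with a mean difference of K27M minus control of 66.0 bp (SD 368, n = 5 pairs, exact p = 0.75, from flipping the signs of the pairs in every way, two-sided, with a smallest possible p of 0.0625). Itga6 was less even: it had 3000 and 0 bp in brainstem controls, 0 and 799 bp in K27M brainstem cultures, 0, 2037 and 3000 bp in telencephalon controls and 0, 0 and 160 bp in telencephalon K27M. Of the brainstem controls only 59 had a peak at the Itga6 promoter, and its bivalent call there came from a long peak of that library, 9682 bp, which met a peak of control 61 outside the promoter. Requiring a promoter peak in at least 2 cultures gave 7 bivalent members in the brainstem and 12 in the telencephalon. Itga7, the muscle laminin receptor, had 505 and 0 bp in brainstem controls, none in brainstem K27M, 0, 2208 and 1705 bp in telencephalon controls and 0, 428 and 0 bp in telencephalon K27M. H3K4me3 was present at all 3 genes in all 10 libraries.

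Collagen receptors split. Itga11, a receptor for fibrillar collagen, was covered by H3K27me3 over 2011 and 2194 bp in brainstem controls, 2125 and 1897 bp in K27M brainstem cultures, 907, 2324 and 2056 bp in telencephalon controls and 643, 1626 and 1568 bp in telencephalon K27M. It was lower in K27M in 4 of 5 pairs (mean difference −327 bp, SD 301, exact p = 0.125). Itga2, a collagen receptor of platelets and epithelia, had 1516 and 433 bp in brainstem controls and none in brainstem K27M, and in the telencephalon only control 60 had a peak (808 bp), so it was bivalent in the brainstem alone. Itga1 had H3K4me3 in all 10 libraries and no H3K27me3, and Itga10, a chain of cartilage, had neither mark. The Itga1 promoters overlap those of the predicted gene Gm49395 by 2999 bp, so its H3K4me3 is shared with that gene.

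Among the alpha chains of RGD receptors, Itga5, the alpha chain of the classic fibronectin receptor, was the only one with H3K27me3. Its coverage was 3000 and 1914 bp in brainstem controls against 1166 and 872 bp in K27M brainstem cultures, and 534, 3000 and 2978 bp in telencephalon controls against 0, 1397 and 1505 bp in telencephalon K27M. The brainstem groups did not overlap, the telencephalon groups did because of control 59, and K27M was lower in 5 of 5 pairs (mean difference −1297 bp, SD 515, exact p = 0.0625, the smallest these pairs allow). The share of all genes whose brainstem groups separate in this way is not given. Itgav, Itga8 and Itga2b had H3K4me3 in all 10 libraries and no H3K27me3 in any. For Itga2b, the platelet fibrinogen receptor chain, the H3K4me3 peak in each library lay at the start of an internal transcript at position 102456190 of chromosome 11, and none of the 10 libraries had a peak over the 300 bases at the RefSeq start. Itga4 and Itga9, chains that bind fibronectin variants, tenascin and vascular cell adhesion molecules, had H3K4me3 in all 10 libraries, with H3K27me3 in telencephalon control 61 alone for Itga4 (949 bp) and in telencephalon controls 60 and 61 for Itga9 (944 and 387 bp). For Itga9 the H3K4me3 peak lay at a transcript start at position 118606690 of chromosome 9, and in no library did one reach the RefSeq stretch, which starts at 118711442.

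Itgae, Itgal, Itgam, Itgax, Itgb2 and Itgb7 encode integrins of leukocytes, and all 6 were unmarked in both regions. None had H3K4me3 in any library. H3K27me3 appeared only in control libraries with many peaks, over 228 and 767 bp at Itgal and 139 and 616 bp at Itgam in brainstem control 59 and telencephalon control 61, and over 640 bp at Itgb2 in telencephalon control 60. The Itgam promoters share 3000 bp with those of the protein-coding gene Gm49368, so the mark there cannot be assigned to Itgam.

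Of the other beta chains, Itgb1, the partner of most alpha chains, and Itgb8, an activator of latent TGF-beta, carried H3K4me3 in all 10 libraries and H3K27me3 in none. Itgb5, a vitronectin receptor chain that pairs with Itgav, was bivalent in both regions. Its promoter was covered by H3K27me3 over 3000 bp in each of the 5 controls, against 2377 and 2291 bp in brainstem K27M and 2106, 2847 and 2880 bp in telencephalon K27M. No K27M culture reached a control, the mean difference was −499.8 bp (SD 346, 5 of 5 pairs lower, exact p = 0.0625), and the controls were at the upper limit of the measure. The share of all genes with such a separation is not given. Itgb4, the hemidesmosome chain that pairs with Itga6, had 2802 and 1951 bp in brainstem controls, 2052 and 2009 bp in K27M brainstem cultures, 1938, 2744 and 2688 bp in telencephalon controls and 1433, 2153 and 2038 bp in telencephalon K27M, lower in 4 of 5 pairs (mean −488 bp, SD 318, exact p = 0.125). Itgb6, an epithelial chain, had 2527 and 624 bp in brainstem controls and none in brainstem K27M, and 303, 0 and 2727 bp in telencephalon controls with none in telencephalon K27M. It was lower in 4 of 5 pairs and at 0 in both in the other (mean −1236 bp, SD 1291, exact p = 0.125), and its H3K4me3 was found in 3 telencephalon libraries alone (controls 59 and 61 and K27M 61). Itgb3, the partner of Itga2b and Itgav, had H3K4me3 throughout and H3K27me3 in brainstem control 59 (2297 bp) and telencephalon control 60 (767 bp).

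The laminin chains differed by subunit. Lama1 and Lama4, and Lamc1, the gamma chain of most laminins, had H3K4me3 in all 10 libraries and no H3K27me3. Lama3, a chain of epithelial laminin, had 2213 and 0 bp of H3K27me3 in brainstem controls and 0, 1485 and 1863 bp in telencephalon controls, and Lama5, a broadly used basement membrane chain, had 2710 and 0 bp and 0, 991 and 1380 bp. Both had none in any K27M culture and H3K4me3 in all 10 libraries, and both were bivalent in the telencephalon only, although brainstem control 59 also had a peak at each. Lama2 had little of either mark, with H3K27me3 in brainstem control 59 (659 bp) and telencephalon control 61 (774 bp) and H3K4me3 in 3 telencephalon libraries (controls 60 and 61 and K27M 61). Lamb1, the beta chain of most embryonic laminins, had 3000 and 3000 bp of H3K27me3 in brainstem controls, 2178 and 3000 bp in K27M brainstem cultures, 2961, 3000 and 3000 bp in telencephalon controls and 2281, 3000 and 3000 bp in telencephalon K27M. It was lower in the 2 pairs numbered 59 and at 3000 bp on both sides in the other 3 (mean −300.4 bp, SD 414, exact p = 0.5). Lamc3, a gamma chain of nerve and retina, had 3000 and 2851 bp in brainstem controls, 2938 and 2909 bp in K27M brainstem cultures, 1554, 3000 and 3000 bp in telencephalon controls and 1904, 2830 and 2711 bp in telencephalon K27M. The groups overlapped (mean −22.6 bp, SD 245, exact p = 0.812), and its only H3K4me3 peak was in telencephalon control 61.

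For Lamb2 and Lamb3 the marks cannot be assigned to the laminin gene. The Lamb2 promoters share 1275 bp with those of Usp19 and the Lamb3 promoters 2120 bp with those of G0s2, both protein-coding. The H3K4me3 peaks counted for these genes did not reach the 300 bases at the RefSeq start in any library. Lamb3 was the 1 member with more K27M than control cultures marked by H3K27me3, with 0 and 0 bp in brainstem controls, 0 and 569 bp in K27M brainstem cultures, 0, 230 and 1375 bp in telencephalon controls and 0, 917 and 320 bp in telencephalon K27M (mean 40.2 bp, SD 689, exact p = 1). Lamb2 had H3K27me3 in brainstem control 59 (869 bp) and telencephalon control 60 (337 bp) only.

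The comparison of K27M with control asks which of these promoters keep H3K27me3 when the mutant histone is present. In the brainstem, 19 members had an H3K27me3 peak in any library. Itga2 and Itgb6 had one in both controls and in no K27M culture (2 of 19, against 16.6% of all genes with a peak in the region), 7 had one in all 4 libraries (Itga3, Itga5, Itga11, Itgb4, Itgb5, Lamb1 and Lamc3, against 25.8%), and 0 had one in both K27M cultures alone (against 0.679%). In the telencephalon, of 22 members none was marked in all 3 controls and no K27M culture (against 4.68%), 6 were marked in all 6 libraries (Itga3, Itga11, Itgb4, Itgb5, Lamb1 and Lamc3, against 15.5%) and 0 in K27M alone (against 0.0163%). Over both regions these 6 genes had a peak in all 10 libraries (6 of 22, against 12.9% of 14152 genes with a peak anywhere), and 12 of 22 had one in at least 1 control and in no K27M culture (against 66%). Coverage was lower in K27M in every pair for 2 of 22 members, Itga5 and Itgb5 (against 9.53%), and higher in every pair for 0 (against 0.12%). With 5 pairs no coverage difference could pass 0.05. With the regions averaged within each of the 3 culture numbers, the smallest exact p was 0.25, reached by Itga5 (mean −1348 bp, SD 224) and Itgb5 (mean −442 bp, SD 304), each lower in 3 of 3 numbers.

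These counts lean on single cultures. Brainstem control 61, with 25632 peaks, had 9 marked members, and without that pair 11 members had H3K27me3 in the brainstem control and not in K27M. In the pair left, 10150 of all genes had a peak in control 59 and 3209 in K27M 59. Without telencephalon culture 59, 3 members had H3K27me3 in both other controls and neither K27M culture, and 8 in all 4 libraries. Of all genes, 9089 and 11215 had a peak in telencephalon controls 60 and 61, and 4117 and 3276 in the K27M cultures of these numbers. The shares of all genes in the same classes are not given, so these counts describe the dependence on single cultures only. When each library was cut to its 4739 strongest H3K27me3 peaks, Itga3, Itga11, Itgb4, Itgb5 and Lamb1 still had one in 10 of 10 libraries and Lamc3 in 4 controls and 5 K27M cultures. Itga5 had one in 5 controls and 4 K27M cultures and Itga6 in 3 and 1, whereas Itga2 and Itgb6 had none in any library, so that the 2 losses in the brainstem were not seen at equal numbers of peaks.

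At the 6 genes with H3K27me3 in all 10 libraries, the peaks were shorter in K27M in most pairs, with differences that 5 pairs cannot bring under 0.05. The longest H3K27me3 peak at Itgb5 measured 25355 and 6067 bp in brainstem controls 59 and 61 and 2352 and 3803 bp in K27M, and 5635, 41008 and 8796 bp in telencephalon controls 59, 60 and 61 and 4121, 4953 and 5099 bp in K27M. Every K27M peak was shorter than every control peak, with a mean log2 ratio of K27M to control of −1.68 (SD 1.44, 5 of 5 pairs, exact p = 0.0625). How many of all genes with a peak in every library separate in this way is not given. At Lamb1 the lengths were 10890 and 5948 bp against 3929 and 5398 bp in the brainstem and 5503, 8245 and 10535 bp against 3852, 5695 and 5486 bp in the telencephalon (mean log2 ratio −0.72, SD 0.51, 5 of 5 pairs, exact p = 0.0625). At Lamc3, control lengths ran from 1554 to 17840 bp and K27M lengths from 2236 to 4289 bp, so the groups overlapped. Itgb4 (mean log2 ratio −0.48, SD 0.20) and Itga11 (−0.39, SD 0.18) were also shorter in 5 of 5 pairs (exact p = 0.0625 for each), while Itga3 was shorter in 3 of 5 (−0.38, SD 0.66, exact p = 0.312) and Lamc3 in 4 of 5 (−0.94, SD 1.10, exact p = 0.188). Shortening in every pair was thus seen in 4 of these 6 genes, against 43.8% of the 1820 genes with a peak in all libraries, and the median log2 ratio was −0.60 in the 6 genes and −0.48 in the 1820. At a fold enrichment of at least 3, it was seen in 1 member, and without telencephalon culture 59 in all 6. Peak lengths were compared after the values had been seen.

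**Figure D3:**
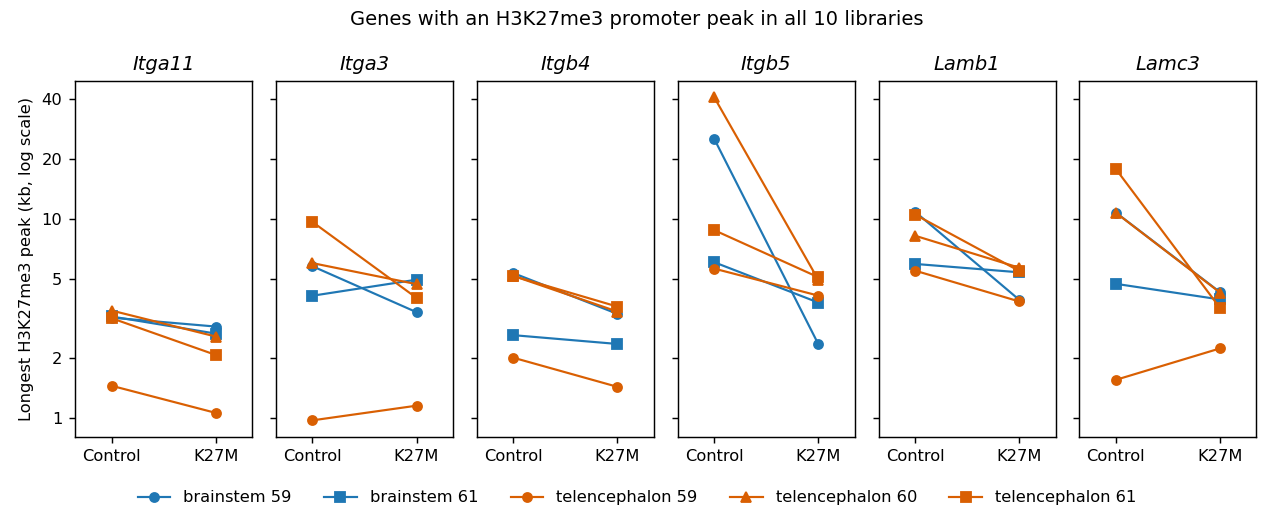
Length of the longest H3K27me3 peak at the promoter (kb, log scale) in each control culture and its matched K27M culture, joined by a line, for the 6 genes marked in all 10 libraries. Blue is brainstem and orange telencephalon, and marker shapes give the culture number. Lines for Itgb5, Lamb1, Itgb4 and Itga11 fall in all 5 pairs, and Itgb5 goes from up to 41008 bp in a control to at most 5099 bp in K27M.

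The enrichment of these peaks was higher in K27M in 4 of 5 pairs for 3 of the 6 genes, and no difference passed its test. Fold enrichment over input, averaged by the caller over a broad peak, was 5.66 and 5.12 at Lamb1 in brainstem controls and 6.17 and 9.20 in brainstem K27M, and 3.61, 9.47 and 6.98 in telencephalon controls and 4.11, 9.24 and 10.5 in telencephalon K27M, higher in 4 of 5 pairs (mean log2 difference 0.34, SD 0.36, exact p = 0.125). Itgb4 was also higher in 4 of 5 pairs (0.33, SD 0.34, exact p = 0.125), Itgb5 (0.13, SD 0.37) and Lamc3 (0.13, SD 0.34) in 3 of 5, Itga3 in 4 of 5 (0.06, SD 0.27) and Itga11 in 2 of 5 (−0.06, SD 0.34). The median over the 1820 genes was 0.43, with 75.9% of genes above 0, so each of the 6 lay under that median. Enrichment is relative to each library and was not scaled to the spike-in.

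Control cultures were compared between regions to ask which promoters differ by origin. Itga7, Lama3 and Lama5 were bivalent in the telencephalon and H3K4me3 only in the brainstem, Itga2 was the reverse, and Itgb6 and Lama2 were H3K4me3 only in the telencephalon and unmarked in the brainstem. No member had H3K27me3 in all controls of one region and none of the other, as did 0.383% of genes for the telencephalon and 0.815% for the brainstem. Each of the 4 members that changed in H3K27me3 state had a peak in at least 1 control of either region. With telencephalon culture 60 or 61 left out, 3 members were bivalent there, and without culture 59 there were 10. With 2 cultures against 3, this difference was not tested.

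No member had H3K4me3 in every control and no K27M culture, or the reverse, in the brainstem (against 0.304% and 0.411% of genes with a peak in the region) or the telencephalon (against 0.00505% and 0.106%). None had it in all controls of one region and none of the other (against 0.0864% for the telencephalon and 0.147% for the brainstem). All 25 members with H3K4me3 in the brainstem had it in all 4 libraries there (against 89.5% of all genes with a peak in the region), and 21 of 28 in the telencephalon had it in all 6 (against 81.2%). The 7 others were Itga11, Lamb1 and Lamb2, absent in control 59 alone, Itgb4, absent in both cultures numbered 59, and Itgb6, Lama2 and Lamc3. Peak height was tested for the 21 members with a peak in all 10 libraries, as log2 fold enrichment at the highest summit after cyclic loess. The test was limma over 15931 genes, with matched pairs as a block in the K27M comparisons. The comparison of regions in controls was fitted on groups of region and genotype without a block, so matched cultures counted as independent there.

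No member and no gene passed an adjusted p of 0.05 (limma, Benjamini-Hochberg) in the brainstem, the telencephalon, between regions or for the difference of the K27M effects (0% called in each). At an unadjusted p under 0.05, all genes numbered 315, 1856, 203 and 690 in these comparisons, and members 0, 4, 1 and 1. The median difference of K27M minus control over the 21 members was −0.10 in the brainstem (range −0.51 to 0.46) and −0.07 in the telencephalon (range −0.99 to 0.57), and over all genes −0.004 and −0.015. Itga5 had the lowest value in the telencephalon. Its normalised log2 heights were 3.30, 4.80 and 4.34 in telencephalon controls and 2.72, 3.43 and 3.32 in K27M, and 3.78 and 3.87 in brainstem controls and 3.28 and 3.38 in K27M. It was lower in 5 of 5 pairs, by −0.99 (SE 0.22, adjusted p = 0.295, limma) in the telencephalon and −0.49 (SE 0.26, adjusted p = 0.9995, limma) in the brainstem. Before normalization its fold enrichment in telencephalon pair 59 was 2.51 in the control and 2.56 in K27M, against 87.9 and 17.5 in pair 60 and 56.6 and 17.2 in pair 61. Lama3 was 2.69, 4.40 and 3.96 in telencephalon controls and 2.91, 2.94 and 3.21 in K27M, and 2.79 and 2.51 in brainstem controls and 3.51 and 2.71 in K27M. The groups overlapped in both regions, and the K27M differences were −0.66 (SE 0.29) and 0.46 (SE 0.35), with a difference between regions of −1.12 (adjusted p = 0.967, limma).

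Telencephalon pair 59 decided these calls. Without it, 25 members were tested, and Itga5 (−1.37, SE 0.25, adjusted p = 0.00301), Lama3 (−1.09, SE 0.26, adjusted p = 0.016), Itgb4 (−0.87, SE 0.24, adjusted p = 0.0382) and Itgb3 (−0.86, SE 0.25, adjusted p = 0.0452) were lower in K27M in the telencephalon by limma, 4 of 25 against 8.12% of 16650 genes. In controls Lama3 (1.49, SE 0.28, adjusted p = 0.003), Itgb4 (1.07, SE 0.26, adjusted p = 0.0153) and Itga5 (0.88, SE 0.25, adjusted p = 0.0345) were then higher in the telencephalon than in the brainstem by limma, 3 of 25 against 8.83%. None was called in the brainstem (against 0.018%) or for the difference of the K27M effects (against 0.775%). These calls rest on the heights of telencephalon controls 60 and 61. For Itga5 these were 87.9 and 56.6, against 2.51 in control 59 and 13.7 and 10.0 in brainstem controls, before normalization. The study's read totals give both high telencephalon controls larger shares of duplicate reads than any other library of the same mark. Whether duplicate reads account for these heights was not tested.

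**Figure D4:**
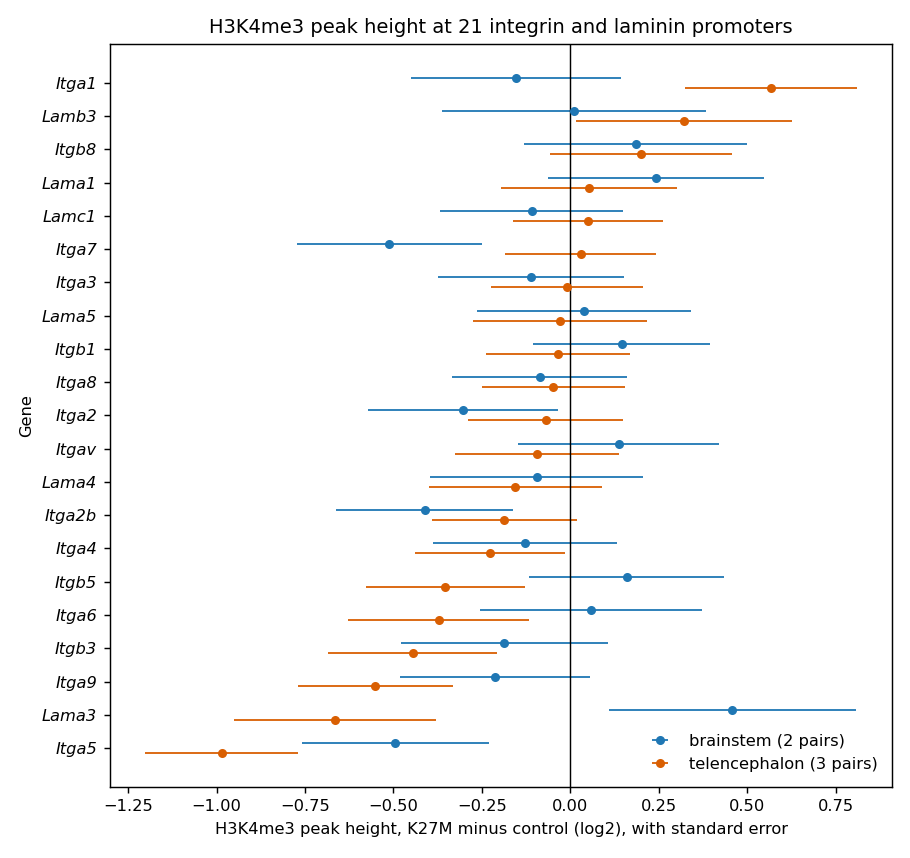
Difference in H3K4me3 peak height between K27M and control (log2, x axis) with its standard error from limma, for 21 genes in brainstem (blue, 2 pairs) and telencephalon (orange, 3 pairs). Itga5 lies lowest in the telencephalon at −0.99, and no gene passed the adjusted threshold.

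The partners of these receptors were described from 2 lists. Of 12 matrix ligands and basement membrane partners, 5 were bivalent in each region (41.7%), against 9.32% of protein-coding genes in the brainstem and 14.5% in the telencephalon. These were Fn1, encoding fibronectin, Nid2, encoding a nidogen, Thbs1, encoding a thrombospondin, and Tnc, encoding tenascin C, in both, Vtn, encoding vitronectin, in the brainstem, and Nid1 in the telencephalon. Tnc had H3K27me3 in every control, in 1 brainstem K27M culture and in 0 of 3 from the telencephalon, and was the 1 gene of the list marked in every control and no K27M culture of a region. That was 1 of 6 list genes with a peak in the telencephalon, against 4.68% of all genes with one. In the brainstem it was 0 of 7, against 16.6%. Fn1 and Thbs1 were marked in 2 of 2 brainstem K27M cultures and 2 of 3 telencephalon K27M cultures, and Nid2 in all. Agrn, Dag1, Hspg2 and Tnr had H3K4me3 in all 10 libraries and no H3K27me3. Of 18 cytoplasmic adaptors and kinases, 1 was bivalent in each region, Fermt1, the epithelial kindlin, and 14 in the brainstem and 15 in the telencephalon had H3K4me3 only (77.8% and 83.3%, against 52% and 49.5% of protein-coding genes), among them Tln1, Ilk, Ptk2 and Fermt2. Lims2 had H3K27me3 in both brainstem controls and neither K27M culture there. That was 1 of 6 adaptors and kinases with a peak in the region, against 16.6% of all genes with one. Parva, Parvb, Parvg and Ptk2 had it in 1 or 2 controls of a region, and Fermt3 and Parvg, which are used by blood cells, had no H3K4me3. By consensus Spp1 and Thbs2 of the ligand list were unmarked in controls, although Spp1 had H3K4me3 in 2 telencephalon K27M cultures and Thbs2 had H3K27me3 in 1 brainstem control. No gene of either list passed the adjusted threshold for H3K4me3 height by limma (9 and 14 tested).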

How the data were processed

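Peak lists of 20 ChIP-seq libraries were used, and the 20 inputs had no file used here. Reads had been aligned to mm10 by the authors (BWA 0.7.17-r1188), and MACS2 2.2.7.1 was run per library with its own input as background, in broad mode for H3K27me3 and narrow mode for H3K4me3. The deposited values are a fold enrichment (a ratio to input) and p and q, each as −log10. The Drosophila spike-in was not part of the peak calls. Promoters came from GENCODE M21 (GRCm38, 132758 distinct promoters), whereas the study used M25. For promoter states, the MSPC method of the study was recoded, keeping peaks seen in at least 2 cultures (H3K4me3: stringent p 1e-10, weak p 1e-06. H3K27me3: stringent p 1e-08, weak p 1e-04). Matched cultures were tested as pairs, with all 32 sign arrangements of the differences (exact, two-sided, Python 3.11.15, numpy 2.4.6, scipy 1.17.1) and with limma 3.58.1 in R 4.3.3. The pairing comes from the methods of the study. Deviations of H3K4me3 height from the group means correlated across genes at r = 0.75, 0.59 and 0.29 within telencephalon pairs 59, 60 and 61, and at 0.035 within the brainstem pairs. For H3K27me3 these were 0.30, 0.22 and −0.04, and −0.009 in the brainstem. The code was tested on simulated data. A culture pools several animals, so p-values cover the spread between pools. All 35 members are accounted for, with values in each library for those whose H3K27me3 differs in number of marked cultures between groups or that are bivalent, and for those past the H3K4me3 threshold. Members and lists were chosen with earlier results of these data known, and peak lengths were added after the data were seen. Signal tracks and expression were not analysed here.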

Additional observations from a re-analysis of the deposited data

How the results depend on the processing

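Other settings kept 78 of 94 recomputed counts within 1.5 times the value given. These include the counts of members called for H3K4me3 height, which were 0 and mostly stayed 0, so the total overstates how steady the other counts were. With peaks of at least 3-fold enrichment, 0 members were lost in the brainstem (2 before), 1 member (Lamb1) was kept in every telencephalon library (6 before), 0 had lower coverage in every pair (2 before) and 1 had a shorter peak in every pair (4 before). An overlap of at least 500 bp left 1 member lost in the brainstem, a promoter of 500 bp on each side left 1 lost and 0 lower in every pair, and equal numbers of peaks left 0 lost. With each culture left out in turn, members lost ranged from 2 to 11 in the brainstem and from 0 to 3 in the telencephalon, members kept in the telencephalon from 6 to 8, telencephalon bivalent members from 3 to 10, and members called for H3K4me3 height from 0 to 4 for K27M in the telencephalon and from 0 to 3 between regions, with 4 and 3 only without telencephalon pair 59. No brainstem count of bivalent members was possible with 1 culture. For the H3K27me3 counts under these settings, the shares of all genes are not given. Without the replicate block, 1 member (Itgb5, exact permutation p = 0.0167 over 120 arrangements) had lower H3K27me3 coverage, since unpaired arrangements allow smaller p-values, and the pairing changed no H3K4me3 call. That p-value was not adjusted for the number of members tested, and the share of all genes that reach it is not given. All controls of Itgb5 were at the upper limit of the measure. The mean coverage difference changed sign for 3 genes near 0. Itga3 (66.0 bp) went to −55.8 at 3-fold enrichment and ranged from −69.75 to 183.5 with each culture left out. Lamb3 (40.2 bp) went to −77.8 with the narrow promoter and ranged from −121.5 to 314 with cultures left out, being −92 without brainstem pair 61. Lamc3 (−22.6 bp) went to 288.2 at equal numbers of peaks and ranged from −115.75 to 44 with cultures left out, being 14.25 without telencephalon pair 60. Of 220 recomputed gene differences, 188 kept their direction, 24 went to 0, most of them with fewer peaks kept, and 8 changed sign. The cause of these shifts was not tested beyond the fewer peaks or samples each setting uses. Fold enrichment and peak presence depend on the depth and background of each library, which were not taken into account here. The study lists read totals, and for both marks these were largest in the telencephalon cultures numbered 59. For H3K4me3 these held 22722 (control) and 22129 (K27M) peaks, against 20961 in brainstem K27M 61. How far depth or background sets the counts was not tested.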
